A study of Mus musculus with 4 samples.

Results

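Accessible chromatin was described at 10 genes of transforming growth factor beta (TGF-beta) signalling in cultured natural killer (NK) cells from mouse spleen: the ligand gene Tgfb1, the receptor genes Tgfbr1, Tgfbr2 and Tgfbr3, the SMAD genes Smad2, Smad3, Smad4 and Smad7, and the co-repressor genes Ski and Skil. Each region was given to the protein-coding gene whose span lay closest, and ties went to the gene with the nearer end. By this rule 171 of 91266 accessible regions belonged to the 10 genes. The study applied ATAC-seq, which reads out open chromatin by the places a transposase can cut and tag, to wild-type C57BL/6 NK cells kept for 72 h in a high dose or in a low dose of interleukin-15 (IL-15). There were 4 samples, 2 replicates per dose, with roughly 75000 cells of input each, and all 4 received IL-15, whose concentrations the labels do not state. The deposited tables held the positions of the regions and 2 lists of regions, named up and down, that the authors called different between the doses, with 0 columns of values per sample. A fold change, a replicate spread or a test of the doses could therefore not be computed, depth is unknown, and the authors' calls are given as theirs. Which dose was the reference was not stated, so "up" and "down" are list names and are not assigned to a dose. Lineage genes were also looked at, after their values were seen, so their counts are a description and not a test of the labelled cell type. Each of 4 genes used as NK cell markers (Ncr1, Klrb1c, Eomes and Tbx21) had a region within 1000 bp of an end. Over all protein-coding genes the share was 54.9%. Of the lineage genes of other cells, 1 of 3 T cell genes (Cd3e), 0 of 3 B cell genes and 0 of 3 myeloid genes had such a region.

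TGF-beta is secreted in a latent form and, once released, is bound by the type II receptor TGFBR2, which then phosphorylates the type I receptor TGFBR1. TGFBR1 phosphorylates SMAD2 and SMAD3, these join SMAD4 and enter the nucleus, SMAD7 blocks the receptor, and SKI and SKIL (also called SnoN) repress SMAD target genes. TGF-beta is known to restrain NK cells and to counter effects of IL-15 on their growth and metabolism.

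The promoters show where open chromatin lay relative to gene starts. RefSeq promoter sequences on GRCm38.p6, the assembly that mm10 denotes, were matched for 5 of the 10 genes, with 6 starts. An accessible region covered 4 of the 6 starts, and 39.8% of the 32851 starts in the table. The table holds 27025 genes, more than the 21900 protein-coding ones, and was not matched to the 10 genes for number of regions. Each of the 4 regions was in neither list. Of the 13081 covered starts in the table, 124 had an up region and 42 a down region. The 250 bases before 4 of these starts are printed 5′ to 3′ on the strand of the gene. Tgfbr2 and the first start of Tgfbr1 lay under a region, and the second start of Tgfbr1 and the start of Ski did not. Capitals mark CAGAC, the short SMAD-binding sequence, or its reverse complement.
Tgfbr2, chr9:116175364-116175613, minus strand: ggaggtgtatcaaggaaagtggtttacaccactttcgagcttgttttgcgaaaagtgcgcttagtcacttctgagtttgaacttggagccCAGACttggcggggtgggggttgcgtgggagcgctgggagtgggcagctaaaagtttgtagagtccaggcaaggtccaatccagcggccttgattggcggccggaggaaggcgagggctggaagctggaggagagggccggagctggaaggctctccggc
Tgfbr1 first start, chr4:47352972-47353221, plus strand: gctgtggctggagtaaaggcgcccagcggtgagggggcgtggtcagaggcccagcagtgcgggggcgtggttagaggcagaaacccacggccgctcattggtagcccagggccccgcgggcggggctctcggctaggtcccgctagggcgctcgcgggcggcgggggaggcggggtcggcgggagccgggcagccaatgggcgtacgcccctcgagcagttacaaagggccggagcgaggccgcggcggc
Tgfbr1 second start, chr4:47385966-47386215, plus strand: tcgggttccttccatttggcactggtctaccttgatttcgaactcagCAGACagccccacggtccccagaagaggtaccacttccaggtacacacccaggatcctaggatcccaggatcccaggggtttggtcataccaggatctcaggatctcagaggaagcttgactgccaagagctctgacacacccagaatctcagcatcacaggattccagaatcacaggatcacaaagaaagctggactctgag
Ski, chr4:155222536-155222785, minus strand: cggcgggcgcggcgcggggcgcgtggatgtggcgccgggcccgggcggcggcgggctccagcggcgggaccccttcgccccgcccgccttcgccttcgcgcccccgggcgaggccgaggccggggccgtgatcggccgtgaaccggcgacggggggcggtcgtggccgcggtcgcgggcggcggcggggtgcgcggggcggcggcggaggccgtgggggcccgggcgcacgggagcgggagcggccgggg
These windows differed widely in base composition. G and C made up 58.4% of the Tgfbr2 window, 74.8% of the first and 52.8% of the second Tgfbr1 window and 87.6% of the Ski window, against a median of 52.4% over all windows in the table. The Ski window held 53 CG dinucleotides and was among the 12 windows of the table with at least its share of G and C, 7 of which had a region over the start. CAGAC occurred in 2 of the 6 windows, those of Tgfbr2 and of the second Tgfbr1 start, and in 42.2% of all windows. The longer form CAGACA was found only in the window of the second Tgfbr1 start among the 6, and in 17.1% of all windows. The SMAD palindrome GTCTAGAC, the STAT sequence TTCNNNGAA, the AP-1 sequence TGANTCA, the RUNX sequence TGTGGT and the T-box sequence GGTGTGA were in 0 of the 6, and in 0.167%, 7.02%, 6.75%, 14.05% and 3.33% of all windows, respectively. The ETS sequence GGAAGT was in 1 of the 6, again that of the second Tgfbr1 start, and in 19.7% of all windows. Both strands were searched, and CAGACA contains CAGAC.

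All 10 genes had accessible regions, from 6 at Tgfb1 to 39 at Tgfbr2. The median of the 16393 protein-coding genes with any region was 3 regions (interquartile range 2 to 6). Tgfbr2 had more regions than 99.3% of these genes, Smad3, with 32, more than 98.6% and Tgfbr3, with 20, more than 95.4%. The remaining counts were 17 at Ski, 15 each at Smad2 and Smad7, 12 at Smad4, 8 at Skil and 7 at Tgfbr1. A gene in a wide gene-free neighbourhood collects more regions under a nearest-gene rule, so the counts were also set against the stretch of chromosome nearest to each gene. That stretch was 292 kb for Tgfbr2, 384 kb for Smad2 and 21 kb for Tgfb1, with a median of 51 kb over genes with a region. Per 100 kb of it, Tgfb1 had 28.6 regions, Ski 20, Smad7 17.2, Smad3 15.2, Tgfbr2 13.4, Skil 12.9, Smad4 11.4, Tgfbr3 7.58, Tgfbr1 6.42 and Smad2 3.91. The median of all genes with a region was 7.14 per 100 kb (interquartile range 3.70 to 12.5). Thus Tgfbr2 came first by number and was the fifth by density, Tgfb1 was last by number and first by density, and Smad2 was least dense. These values come from a single set of regions for the whole series and carry no replicate error.

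**Figure D1:**
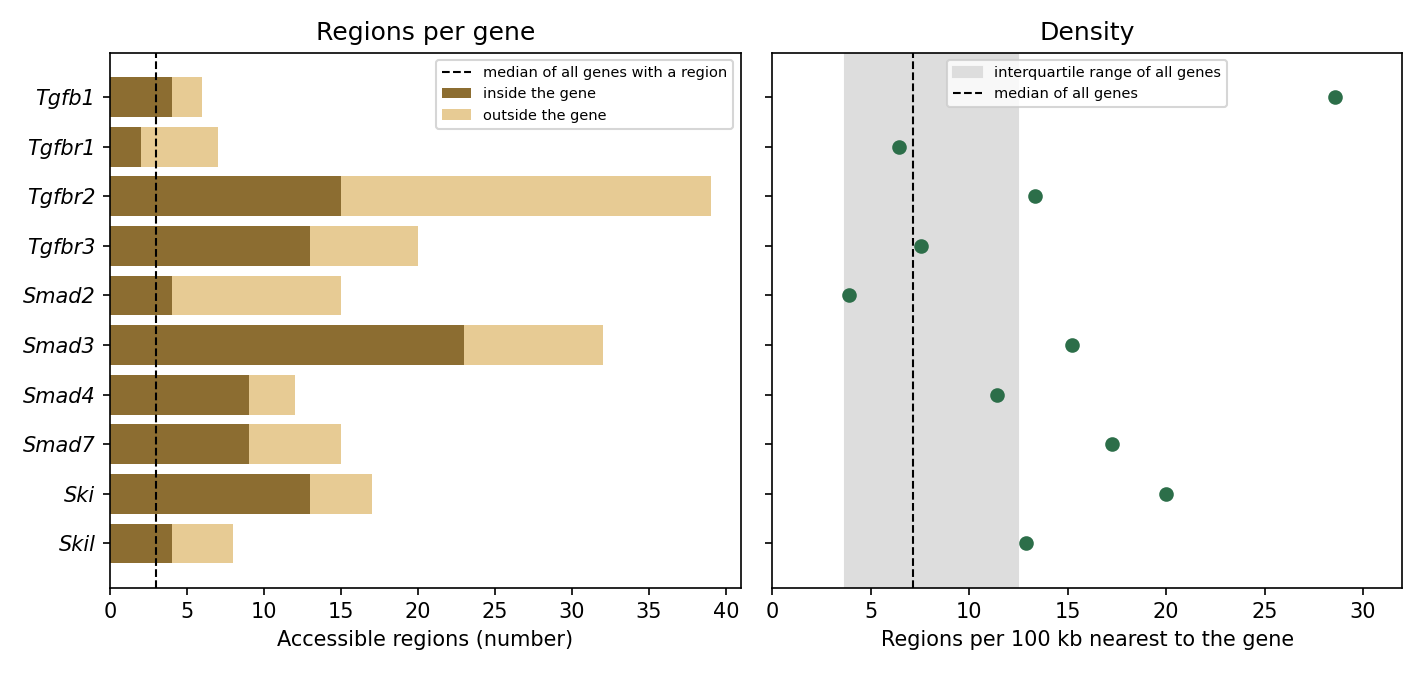
Left, the number of accessible regions per gene, split into regions inside the gene span (dark) and outside it (light), with the median of all genes that have a region as a dashed line at 3. Right, regions per 100 kb of chromosome nearest to the gene, with the median (dashed, 7.14) and interquartile range (grey) of all genes that have a region. Tgfbr2 has the most regions (39) and Tgfb1 the highest density (28.6).

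Of the 171 regions, the authors' deposited table of up regions held 5 and that of down regions held 1. Over all 91266 regions, 4.21% were up, 1.40% were down and 5.61% were in either list. The shares at the 10 genes were 2.92% up (95% Wilson interval 1.26 to 6.66%) and 0.585% down (0.103 to 3.24%), and both intervals, which cover counting error only, contain the share over all regions. The 6 listed regions lay at 3 genes: 2 up regions at Tgfbr2, 2 up regions at Smad2, and 1 up and 1 down region at Tgfbr3. The other 7 genes had 97 regions, all in neither list. Over all genes with a region, 20.1% had at least 1 listed region, a share that grows with the number of regions. It was 30.5% for genes with 6 to 8 regions (0 of 3 members), 55.8% for genes with 12 to 20 (2 of 5 members) and 81.8% for genes with 32 to 39 (1 of 2 members, Tgfbr2 and not Smad3). The up count rests on the rule of assignment. It was 10 when every region inside or within 50 kb of a gene was counted, 2 within 10 kb, and 1 when non-coding genes and pseudogenes also competed for regions, because 4 of the 5 up regions lay nearer to a non-coding gene.

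**Figure D2:**
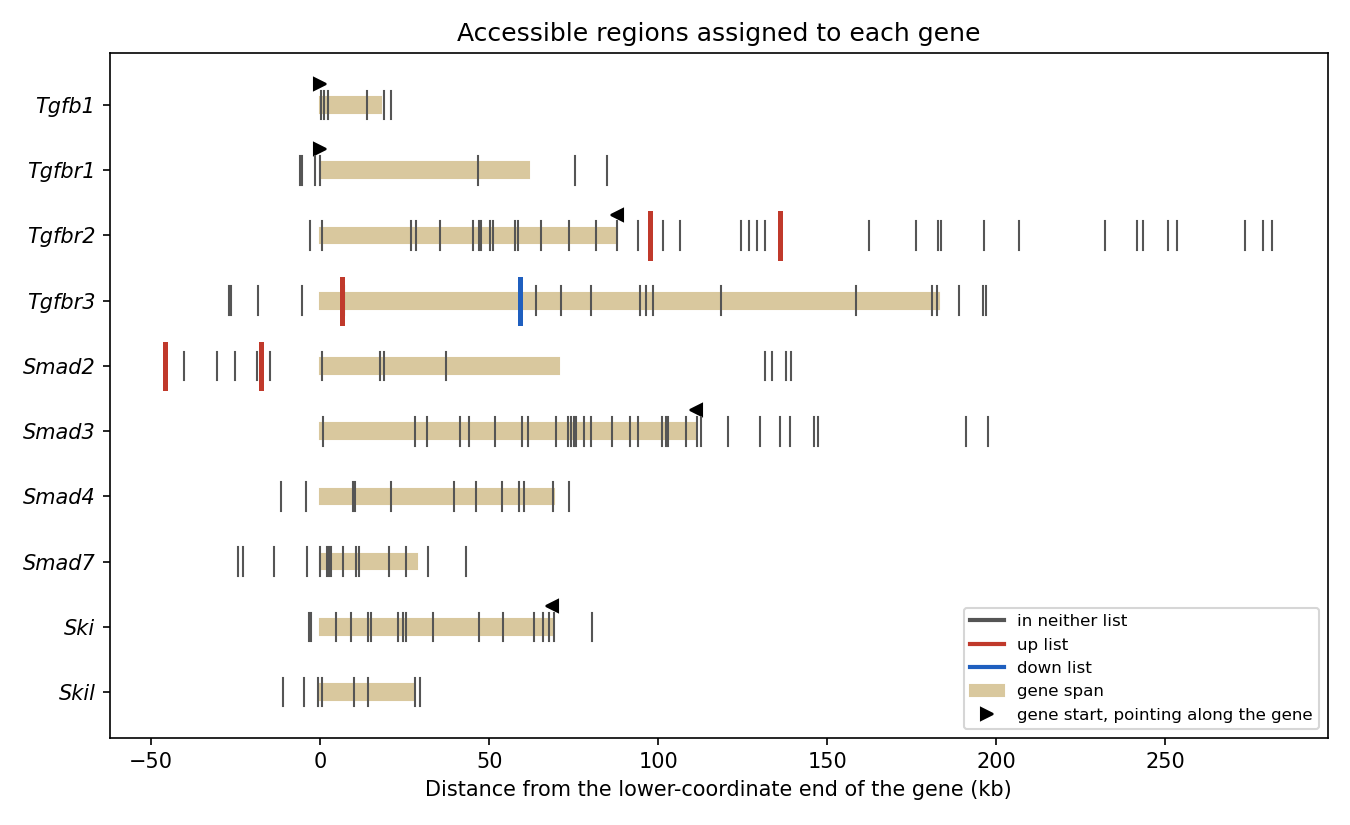
Each row is a gene, drawn along the chromosome with its lower-coordinate end at 0 kb. The tan bar is the gene span, thin grey ticks are regions in neither list, tall red ticks are up regions, the tall blue tick is the down region, and arrowheads mark gene starts where the promoter table gives them (for Tgfbr1 the first start). The 4 up regions of Tgfbr2 and Smad2 lie outside the gene, while both listed regions of Tgfbr3 lie inside it.

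Tgfb1, which encodes the TGF-beta1 ligand, occupies 18.1 kb (chr7:25687002-25705077, plus strand) and had 6 regions, 4 of them inside the gene. A region of 865 bp (chr7:25686703-25687567) covered the gene start. The neighbouring gene B9d2 ends 0.440 kb from that start, so this region also lies close to the end of another gene. A second wide region of 1193 bp began 1.74 kb into the gene, and the widest, of 1328 bp (chr7:25707255-25708582), lay 2.18 kb beyond the far end. The authors' deposited table of down regions holds a region of 308 bp at chr7:25710000-25710307, 4.92 kb beyond Tgfb1, but it was nearer to Ccdc97 and is not among the 6.

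The receptor genes held 66 regions, of which the authors' deposited table lists 3 as up (4.55%, 95% Wilson interval 1.56 to 12.5%) and 1 as down (1.52%, 0.268 to 8.10%), close to the 4.21% and 1.40% over all regions. Tgfbr1, the type I receptor gene (chr4:47353222-47414926, plus strand), had 7 regions, and the authors' deposited table of up or down regions held none of them. Its widest region, 947 bp at chr4:47352727-47353673, covered the first start, and 3 narrower regions of 193 to 299 bp lay within 5.91 kb before it. Only 2 of the 7 regions touched the gene span of 61.7 kb. The second start had no region nearer than 13.6 kb.

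Tgfbr2, the type II receptor gene, spans 87.7 kb on the minus strand (chr9:116087695-116175363). Its start lay under its widest region, 1701 bp at chr9:116174493-116176193, wider than 99.2% of all regions and in neither list. Of its 39 regions, 15 were inside the gene, 1 lay beyond the 3′ end and 23 lay upstream of the start, in a stretch of 397 kb without a protein-coding gene that ends at Rbms3. The upstream regions reached 193 kb from the gene, with 9 of them within 50 kb, 4 from 50 to 100 kb and 10 farther away. In the authors' deposited table of up regions, Tgfbr2 had a region of 406 bp at chr9:116184915-116185320, 9.55 kb upstream of the start, and one of 348 bp at chr9:116223382-116223729, 48.0 kb upstream. The 2 were 38.1 kb apart with 6 regions between them, none listed. The nearer one lay between unlisted regions of 611 bp and 882 bp, at gaps of 2.82 kb and 3.29 kb, and was narrower than both. The farther one closed a run of 5 regions within 11.8 kb. Its neighbour below was 216 bp wide at 4.16 kb, and the next region above, of 377 bp, was 26.1 kb away. Both up regions lay nearer to the long non-coding RNA gene Gm4668 than to Tgfbr2, at 3860 bp and 28496 bp from Gm4668. The next listed regions outward were also up, assigned to Gadl1 below and to Rbms3 above. The 15 regions inside Tgfbr2 were in neither list.

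Tgfbr3 encodes betaglycan, a co-receptor that presents TGF-beta to the type II receptor. It is the longest of the 10 genes (183 kb, chr5:107106567-107289629) and had 20 regions, 13 of them inside. It was the only one of the 10 genes with a region in each list. The authors' deposited table of up regions holds 395 bp at chr5:107112666-107113060, 6.10 kb into the gene from its lower-coordinate end. The authors' deposited table of down regions holds 494 bp at chr5:107165347-107165840, 58.8 kb into the gene. They were 52.3 kb apart, and the single region between them, of 448 bp, was unlisted and lay 337 bp from the up region. On the other side the up region had an unlisted neighbour of 372 bp at 11.2 kb, and the down region one of 766 bp at 4.12 kb. Both listed regions stayed assigned to Tgfbr3 when non-coding genes competed. Beyond Tgfbr3 the nearest listed region was 1201 kb below the up region and 380 kb above the down region. The widest Tgfbr3 region, 1334 bp at chr5:107288423-107289756, covered the higher-coordinate end of the gene and was unlisted.

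Smad2, Smad3 and Smad4, which encode the SMADs that carry the signal, had 59 regions, with 2 up (3.39%, 0.935 to 11.5%) and 0 down in the authors' deposited table (0 to 6.11%), beside 4.21% and 1.40% over all regions. Smad2 (chr18:76241090-76311748) had 15 regions in 384 kb, only 4 of them inside the gene. Its widest region, 1468 bp at chr18:76241004-76242471, covered the lower-coordinate end and was unlisted. In the authors' deposited table of up regions, Smad2 had 525 bp at chr18:76195024-76195548 and 401 bp at chr18:76223384-76223784, 45.5 kb and 17.3 kb below the gene. They were 27.8 kb apart with 4 unlisted regions between them. The nearer one lay 516 bp from an unlisted region of 710 bp and 2.32 kb from one of 169 bp, within the span of the long non-coding RNA gene Gm52360. The farther one was 4.84 kb from an unlisted region of 908 bp and 32.8 kb from one of 184 bp on its other side, which was assigned to Zbtb7c. The nearest annotated gene of any kind to it was the microRNA gene Mir6358, at 24.4 kb. On the other side of Smad2 the next listed region was 1710 kb from the gene.

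Smad3 (chr9:63646766-63757994, minus strand) had 32 regions, 23 of them inside its 111 kb, and 0 of the 32 were listed. Its start lay under a region of 899 bp (chr9:63757803-63758701). Its widest region was an intragenic one, 1858 bp at chr9:63737375-63739232, 18.8 kb downstream of the start and wider than 99.6% of all regions. A run of 7 regions with gaps under 5 kb lay inside the gene, within a stretch of 10.96 kb. The nearest listed region of any gene was 347 kb from Smad3. Over genes with a region the median of this distance was 102 kb, and 6 of the 10 genes were nearer than that and 4 (Smad3, Smad7, Ski and Skil) farther. Tgfb1, for example, was 4.92 kb and Tgfbr1 48.2 kb from a listed region. Smad4, the common partner (chr18:73634790-73703791), had 12 regions with a median width of 274.5 bp, the narrowest median of the 10 genes. Its widest region, 1637 bp at chr18:73702699-73704335, covered the higher-coordinate end. The authors' deposited table of up regions places one 41.2 kb from Smad4, which was assigned to Elac1.

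The inhibitor genes Smad7, Ski and Skil had 40 regions, and the authors' deposited table of up or down regions held 0 of them (95% Wilson interval 0 to 8.76% for either list). At 40 regions, shares equal to those over all regions could not be told from 0. Smad7, a feedback inhibitor that TGF-beta itself induces, spans 28.6 kb (chr18:75367365-75395935). It had 15 regions, including a run of 8 over 15.6 kb that crossed the lower-coordinate end of the gene. That end lay under its widest region, 1515 bp at chr18:75366450-75367964, and further regions of 1139 bp and 1004 bp lay 9.87 kb into the gene and 23.8 kb outside it. Ski (chr4:155154075-155222535, minus strand) had 17 regions, 13 of them inside the gene. Its annotated start was covered by no region, and the nearest one, 868 bp at chr4:155222905-155223772, began 0.370 kb upstream. The widest Ski region, 1731 bp at chr4:155162380-155164110, was intragenic and 58.4 kb downstream of the start. Skil (chr3:31095058-31122923) had 8 regions, the widest of 1562 bp at chr3:31093673-31095234 over its lower-coordinate end. Skil stood farthest from any listed region. The nearest one was 2646 kb away, a greater distance than for 99.5% of genes with a region. The gap around Skil between the nearest listed regions on each side measured 7307 kb and held 133 regions, which are unlisted by definition of the gap. Ski was 298 kb and Smad7 120 kb from the nearest listed region. These distances were examined after the positions were seen.

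Width differed with position. The median width was 419 bp for the 171 regions (quartiles at 265.5 and 637 bp) and 400 bp for all regions (252 and 653 bp). Each of the 10 genes had a region within 1000 bp of an end, as did 73.4% of all genes with a region and 82.2% of the 4947 genes with at least 6 regions. At 9 of the 10, all but Ski, a region lay over an end. These 9 regions measured 865 to 1701 bp with a median of 1468 bp, whereas the other 162 had a median of 407 bp. Over all genes, 9833 regions lay over an end of their own gene, with a median of 963 bp, against 362 bp for the rest. Picking regions that overlap a point favours wide ones, so these contrasts in width are not independent of the choice. At 7 of the 10 genes the region over an end was also the widest, the exceptions being Tgfb1, Smad3 and Ski. Of the 17 member regions within 1000 bp of an end, 0 were listed (95% Wilson interval 0 to 18.4% for either list). Over all genes, 1.32% of such regions were up and 0.616% were down, so 17 regions are too few to show a difference. The 5 up regions of the 10 genes had widths of 348, 395, 401, 406 and 525 bp, and the down region 494 bp, against medians of 453 bp for all up and 537 bp for all down regions. By place, 1 of 96 member regions inside a gene was up (1.04%) and 4 of 75 outside (5.33%). Over all regions these shares were 3.42% inside and 5.46% outside.

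**Figure D3:**
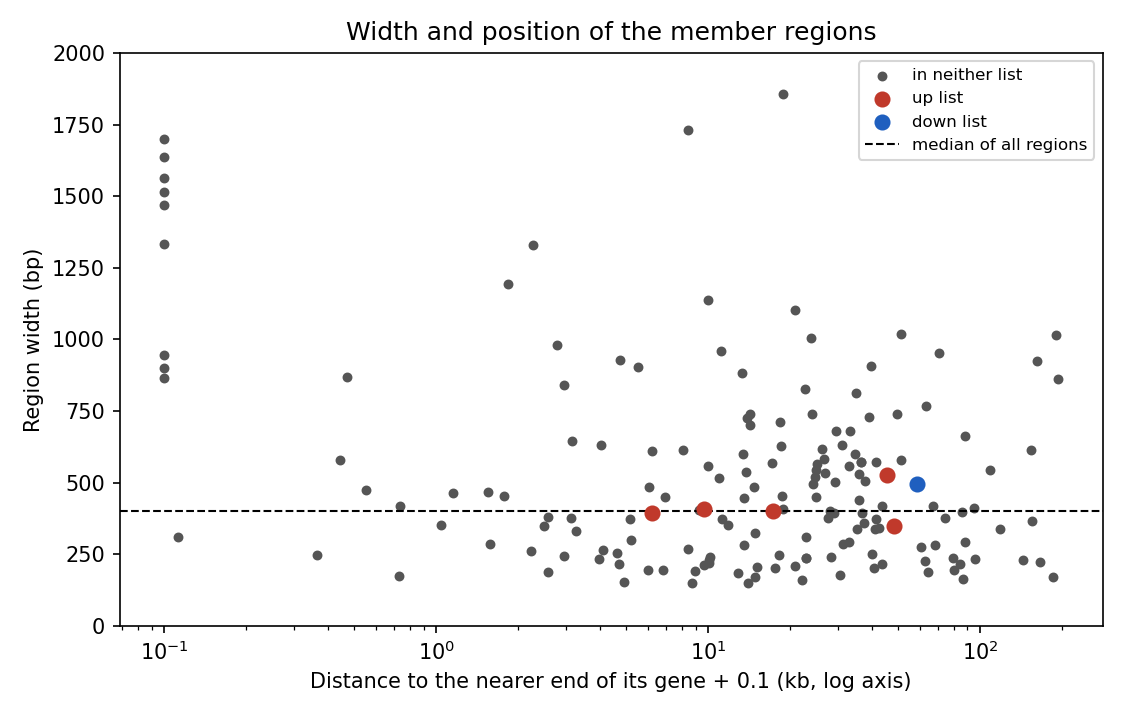
Each point is one of the 171 regions, with its distance to the nearer end of its gene plus 0.1 kb on a log axis and its width in bp on the vertical axis. Grey points are in neither list, red points are up and the blue point is down. Regions over a gene end stand at the far left, between 865 and 1701 bp, and the 6 listed regions lie between 348 and 525 bp, at least 6.10 kb from an end.

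For the wider pathway, 60 other genes of the TGF-beta, activin and bone morphogenetic protein (BMP) branches, of their regulation and of the response in lymphocytes were listed. Of these, 57 had a region and together they had 601. The authors' deposited table lists 26 of the 601 as up (4.33%) and 12 as down (2.00%), against 4.21% and 1.40% over all regions. At least 1 up region was found at 15 of the 60 genes, at least 1 down region at 8, both at 3 and neither at 40. Thus 20 of the 57 genes with a region (35.1%) had a listed one. Over all genes with a region the share was 20.1%, but their median was 3 regions and that of the 57 was 7. Among all genes with 6 to 8 regions it was 30.5%, but this group matches the 57 in the median only. Some of the 57 had many more regions, such as Id2 with 77 and Acvr2a with 44. The share grows with the number of regions. Up regions were found at 26.3% of the 57, against 16.1% of all genes with a region and 24.4% of those with 6 to 8 regions. For down regions the shares were 14.04%, 5.39% and 6.43%, from 8 genes, and the difference was not tested. These 8 genes include Id2, Acvr2a, Map3k7 (28 regions) and Pmepa1 (25), so genes with 6 to 8 regions are not a matched group. Nrros (8) and Thbs1 (6) do fall in that range. The 20 ligands and activators had 134 regions, of which 10 were up (7.46%) and 3 down (2.24%). Of the 20 genes, 18 had a region, with a median of 7.5, and 7 had an up region, beside 24.4% of all genes with 6 to 8 regions: Tgfb2, Inhba, Bmp2, Bmp7, Lrrc32, which encodes the latent TGF-beta anchor GARP, and the integrin genes Itgav and Itgb8, whose products form a receptor that activates latent TGF-beta. Itgb8 had 2 of its 9 regions up, 1 of them inside the gene. Down regions were found at Ltbp1 and Nrros, whose products bind latent TGF-beta, and at Thbs1, 1 at each, so that 3 of the 18 genes had a down region, beside 6.43% of all genes with 6 to 8 regions. With so few genes, neither count was read as a difference. The 11 other receptors had 6 up (6.67%) and 1 down (1.11%) of 90 regions. Of these, Acvr2a, an activin type II receptor gene, had 5 up and 1 down of its 44 regions, all 47.2 kb or more from the gene, and Acvr1c had 1 up of 6. The 9 other SMADs and partners had 1 up region in 56 (1.79%), at Smad1, 27.6 kb from the gene. The inhibitor Smad6, the next gene to Smad3, had 10 regions and 0 listed.

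The 10 regulators had 3 up (2.75%) and 4 down (3.67%) of 109 regions. Among them, Pmepa1, a TGF-beta-induced inhibitor of SMAD signalling, had 3 down and 2 up of 25 regions, with 1 of the down regions inside the gene. Fkbp1a, whose product binds the type I receptor, had 1 up of 6, and Map3k7, which encodes the kinase TAK1, 1 down of 28. The 10 genes known to respond to TGF-beta in lymphocytes had 212 regions, of which 6 were up (2.83%, against 4.21% over all regions) and 4 down (1.89%, against 1.40%). Among them, Itga1, which encodes the integrin chain CD49a, had 4 up of 31 regions, 1 of them inside the gene. Itgae, which encodes CD103, had 1 up of 8, inside the gene. Itga2, which encodes CD49b, had 1 up and 1 down of 19, both inside the gene, and Id2 had 3 down of 77, all 173 kb or more from the gene. The other 6 genes of that group had 0 listed regions.

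The JAK and STAT genes, through which the IL-15 receptor signals, gave a comparison with another receptor pathway. These 11 genes had 110 regions, of which the authors' deposited table lists 1 as up (0.909%, 0.161 to 4.97%) and 3 as down (2.73%, 0.932 to 7.71%), beside 4.21% and 1.40% over all regions. For the 10 TGF-beta genes the corresponding shares were 2.92% (1.26 to 6.66%) and 0.585% (0.103 to 3.24%). The intervals of both sets include the shares over all regions, and the difference between the sets was not tested.

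**Figure D4:**
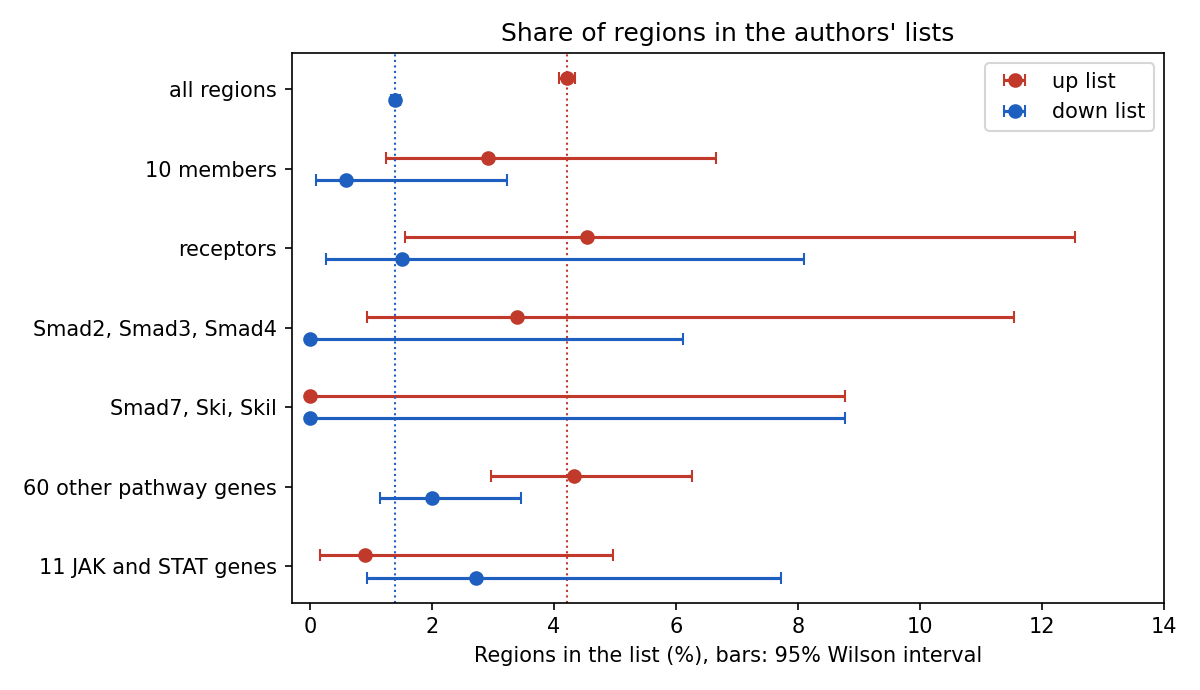
Points give the percentage of regions in the up list (red) and in the down list (blue) for each set of genes, bars are 95% Wilson intervals, and dotted lines mark the shares over all regions (4.21% and 1.40%). The intervals of the 10 members, of the receptor and SMAD groups and of the 60 other pathway genes all include the dotted lines, and so do those of the JAK and STAT genes.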

How the data were processed

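ATAC-seq regions came from 4 samples grouped by the dose in their treatment labels. The submitters' processing notes name BWA, ArchR, MACS2, HOMER 4.11.1 and the build mm10, without roles. The differential test, its threshold, the reference dose and whether regions were called per sample are not given in the sources used here. The deposited values are positions and widths in bp only. The full list counts starts from 0. With 1 added to its starts, every up and down region equalled one of its regions. Regions were assigned to 21900 protein-coding genes of the RefSeq table for GRCm38.p6 with Python 3.11.15, numpy 2.4.6 and pandas 2.3.3. The assignment code was run on simulated regions placed inside or close to isolated genes, and 4764 of 4764 were recovered. Overlapping genes, ties and distant regions were not tried, so this checks the code in simple cases only. Intervals are 95% Wilson intervals (scipy 1.17.1). They treat regions as independent, although regions of a gene lie in runs, so they are descriptive and may be too narrow. Regions are not replicates, so no test was run. The stretch nearest to a gene was measured in steps of 1 kb. Gene starts came from the RefSeq promoter table. Exons and introns were not annotated. Of the regions, the text names those in a list with their neighbours, the one nearest each start (or end, where no start is known) and the widest of each gene. Other pathway genes are named where they have a listed region. Smad6, the lineage genes and some further regions were added after their values were seen. The members and lists were chosen with earlier results of these data known. The planned dose test needs values per sample and was not run. Assignment by distance, biotype and gene end, a width minimum, the overlap rule and the end distance were varied.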

Additional observations from a re-analysis of the deposited data

How the results depend on the processing

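No paired analysis was possible because the tables hold no values per sample. For the same reason the fits of the doses, with or without a replicate left out, were not run. For the 5 results, 31 alternatives were computed. Of these, 20 stayed within 1.5 times the reported count or within the 95% interval of the median, and 11 moved. The 171 regions became 110 with genes of any biotype competing and 94 with regions at least as wide as the median of all. The 5 up regions became 2 within 10 kb of a gene, 10 within 50 kb, 1 with genes of any biotype, 3 at or above the median width and 3 without Tgfbr2, an alternative added after the data were seen. The 1 down region became 2 within 10 kb and within 50 kb, through the region assigned to Ccdc97 near Tgfb1. The median width of 419 bp became 615.5 bp with only the wider regions. The 10 genes with a region within 1000 bp of an end became 5 when only known starts were used, because 5 genes have no start in the promoter table. By construction, each of these alternatives changes which regions or genes can be counted. With 1 set of regions and no counts, depth and replicate spread could not be assessed.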
